A study of Mus musculus with 4 samples.

Results

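Nuclei rich in milk-protein transcripts were found in the inguinal fat of mice, a pad under the skin of the groin in which the ducts and alveoli of a mammary gland can lie. They were chosen by their milk-gene UMIs, as nuclei with at least 300 detected genes and at most 10% mitochondrial UMIs (unique molecular identifiers, each standing for 1 captured transcript), in which the milk genes Csn1s1, Csn1s2a, Csn2, Csn3 and Lalba made up at least 2% of UMIs and at least 3 of the 5 had a UMI. The rule was met by 84 of 50067 nuclei. The mice were C57BL/6N and 6 months of age, and single-nucleus RNA sequencing gave 4 libraries, 2 labelled wild type (genotype WT) and 2 labelled PTRF knockout. The sources used here give neither the sex, parity and lactation state of the mice nor the sequence deleted in the knockout, although the series title speaks of a distal enhancer of Ptrf. Each title names a separate mouse.

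The caseins are the phosphoproteins that form the micelles of milk: Csn1s1 and Csn1s2a encode calcium-sensitive alpha-caseins, Csn2 encodes beta-casein, and Csn3 encodes kappa-casein, which caps the micelle surface. Lalba encodes alpha-lactalbumin, the whey protein that turns the galactosyltransferase B4galt1 into lactose synthase. In the mammary gland these genes are transcribed in luminal cells of the secretory lineage, where prolactin acts through its receptor, the kinase Jak2 and the transcription factor Stat5, with Elf5 as a lineage factor, and milk fat leaves the same cells as droplets wrapped in membrane that carries butyrophilin and xanthine oxidoreductase.

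The casein genes of the rule lie together on chromosome 5 (GRCm38, GENCODE M21), within chr5:87666208-87932665, and Lalba lies on chromosome 15. The 250 bases before the RefSeq start (GRCm38.p6) are shown for 4 of the 5 genes, the number that matched the table, because these genes define the nuclei and differ in whether they hold a motif of the STAT family, TTCNNNGAA. Capitals mark a match, the motif reads the same on both strands, and each sequence is 5′ to 3′ on the strand of its gene. Csn1s1 is on the plus strand with the window chr5:87665958-87666207, Csn2 on the minus strand with chr5:87699426-87699675, Csn1s2a on the plus strand with chr5:87774200-87774449, and Lalba on the minus strand with chr15:98482684-98482933.
Csn1s1: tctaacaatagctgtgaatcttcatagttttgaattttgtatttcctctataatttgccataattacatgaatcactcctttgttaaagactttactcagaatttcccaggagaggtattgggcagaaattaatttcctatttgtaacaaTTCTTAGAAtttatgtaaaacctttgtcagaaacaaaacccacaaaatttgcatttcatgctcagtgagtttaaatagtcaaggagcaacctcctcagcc
Csn2: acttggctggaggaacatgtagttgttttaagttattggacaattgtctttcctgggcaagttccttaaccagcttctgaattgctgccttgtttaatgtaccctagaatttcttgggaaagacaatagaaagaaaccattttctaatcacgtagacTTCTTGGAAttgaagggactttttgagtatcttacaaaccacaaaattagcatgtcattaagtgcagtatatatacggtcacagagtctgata
Csn1s2a: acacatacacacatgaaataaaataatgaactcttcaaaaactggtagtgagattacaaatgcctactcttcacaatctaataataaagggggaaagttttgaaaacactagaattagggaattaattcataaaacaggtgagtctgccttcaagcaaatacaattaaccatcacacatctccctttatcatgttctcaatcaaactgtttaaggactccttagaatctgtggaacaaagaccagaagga
Lalba: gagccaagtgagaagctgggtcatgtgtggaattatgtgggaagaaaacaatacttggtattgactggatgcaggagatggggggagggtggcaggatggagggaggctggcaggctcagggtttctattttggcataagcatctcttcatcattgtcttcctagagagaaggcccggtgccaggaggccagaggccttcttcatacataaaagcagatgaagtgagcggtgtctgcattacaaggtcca
Csn1s1 held 1 match, whose first base was 100 bases before the start, and Csn2 held 1 match, 93 bases before the start. The windows of Csn1s2a and Lalba held 0 matches, and across 32851 RefSeq promoters of this length 7.02% held the motif. RefSeq and GENCODE place the starts of Csn2, Csn1s2a and Lalba at different bases. A match describes the letters of the window and shows no binding, and UMI counts do not show which start was used.

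The milk-protein-rich nuclei came almost wholly from the library labelled wild type 1. It held 79 of them among 15528 nuclei, the library labelled wild type 2 held 0 of 6664, that labelled knockout 1 held 3 of 11988, and that labelled knockout 2 held 2 of 15887. As a share of nuclei this was 0.509% (exact binomial 95% interval 0.403 to 0.634) in wild type 1, 0.0250% (0.00516 to 0.0731) in knockout 1 and 0.0126% (0.00152 to 0.0455) in knockout 2, while the 0 in wild type 2 allows a share of up to 0.0450% by the limit of 3 counts. These intervals and limits cover counting error only. Among nuclei that passed an epithelial gate (at least 3 of 14 genes such as Epcam, Krt8 and Cdh1 with a UMI) together with the milk-protein-rich nuclei, the share was 5.04% of 1567 in wild type 1, 0 of 350 in wild type 2, 0.373% of 805 in knockout 1 and 0.178% of 1125 in knockout 2. The library labelled wild type 1 thus stood above the others, whose order cannot be told at this depth, since the limit for wild type 2 lies above both knockout-labelled values. The mean share was 0.0188% ± 0.00879 (SD, n = 2) under the knockout label and 0.254% ± 0.360 (SD, n = 2) under the wild type label, a difference of -0.236 percentage points with p = 1 by the exact two-sided permutation test over libraries, for which the smallest possible p is 0.333. Without the library labelled wild type 1 the difference turned to 0.0188.

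**Figure D1:**
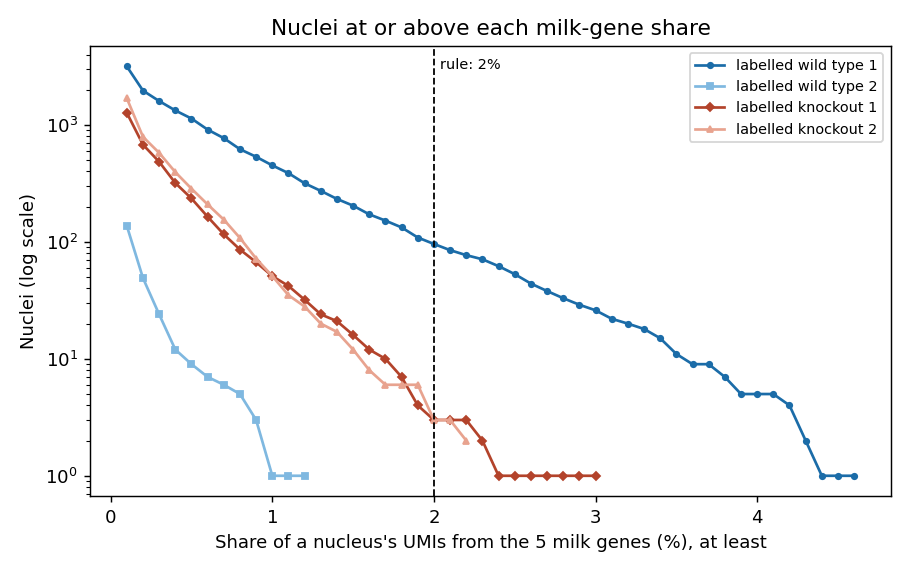
Number of nuclei (log scale) whose 5 milk genes make up at least the share of UMIs on the horizontal axis, for each library, with the 2% of the rule dashed and without its demand for 3 detected genes. The curve of the library labelled wild type 1 lies above the others throughout and reaches 4.62%, while that of wild type 2 ends at 1.21%.

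The labels themselves stood against the targeted gene. Cavin1, which encodes the caveolar coat protein also called PTRF, had 40 UMIs over all nuclei labelled wild type 1, 9 over those labelled wild type 2, 730 over knockout 1 and 1759 over knockout 2, or 1.81, 1.04, 53.9 and 50.5 CPM (UMIs of a gene per 1000000 UMIs of the same nuclei). The names under which the matrices were deposited carry the opposite genotype to the labels, so the libraries are called by their labels here and no direction by genotype is drawn. Cavin1 had 0 UMIs in the milk-protein-rich nuclei of each library that held any, which allows up to 19.9 CPM in wild type 1 and says little at the 8261 and 2647 UMIs of the knockout-labelled ones. Median UMIs per nucleus ran from 844.5 to 1401 over the 4 libraries and total UMIs from 8623219 to 34819482. Library pairs shared 53 to 150 barcodes, and 2 milk-protein-rich nuclei carried a barcode that another library also used, in both cases for a nucleus that did not meet the rule there.

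In the library labelled wild type 1, the milk share of the 79 nuclei ran from 2.01% to 4.39% with a median of 2.61%. The rule chose these values, so they are a description. There was no gap at the threshold: 13 nuclei lay between 2 and 2.2%, and 26 with at least 3 of the genes lay between 1.8 and 2%, the closest at 1.99%. A further 17 nuclei reached 2% with fewer than 3 genes. Of the 79 nuclei, 38 had UMIs of 3 of the genes, 31 of 4 and 10 of all 5.

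Csn1s1 and Csn3 had a UMI in each of the 79 nuclei, Csn2 in 78.5%, Csn1s2a in 64.6% and Lalba in 21.5%. Per nucleus, Csn1s1 had a lowest, median and highest count of 1, 22 and 67 UMIs, Csn3 of 1, 14 and 67, Csn2 of 0, 4 and 35, Csn1s2a of 0, 1 and 66, and Lalba of 0, 0 and 13. The kappa- and alpha-S1-casein transcripts were thus in every nucleus, while single nuclei with many Csn1s2a UMIs stood beside others with none. UMIs were not divided by transcript length, so levels are compared for the same gene between classes of nuclei and not between genes.

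The nearest class for comparison was that of secretory-type luminal nuclei, defined as nuclei that did not meet the rule, passed the epithelial gate and had more UMIs of Elf5, Kit and Aldh1a3 than of hormone-sensing genes such as Esr1 and Pgr. In wild type 1, Csn1s1 stood at 12388 CPM (Poisson 95% interval 11833 to 12962) in the milk-protein-rich nuclei and 1756 in the 763 secretory-type nuclei. Csn1s2a stood at 2819 against 118, Csn2 at 3481 against 364, Csn3 at 8417 against 2686 and Lalba at 430 against 62.9. The ratios that follow from the rule were thus unequal, from 3.14 for Csn3 and 6.86 for Lalba through 7.05 for Csn1s1 and 9.55 for Csn2 to 23.9 for Csn1s2a, the other alpha-casein.

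The make-up of milk transcripts also differed between the classes. In milk-protein-rich nuclei Csn1s1 gave 45.0% of milk UMIs, Csn3 30.6%, Csn2 12.6%, Csn1s2a 10.2% and Lalba 1.56%. In secretory-type nuclei of the same library Csn3 gave 53.9%, Csn1s1 35.2%, Csn2 7.31%, Csn1s2a 2.37% and Lalba 1.26%. Kappa-casein was the most counted milk transcript in the second class and alpha-S1-casein in the first. The rule asks for 3 detected genes and so favours nuclei with Csn2 or Csn1s2a, and the difference is given without a test.

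**Figure D2:**
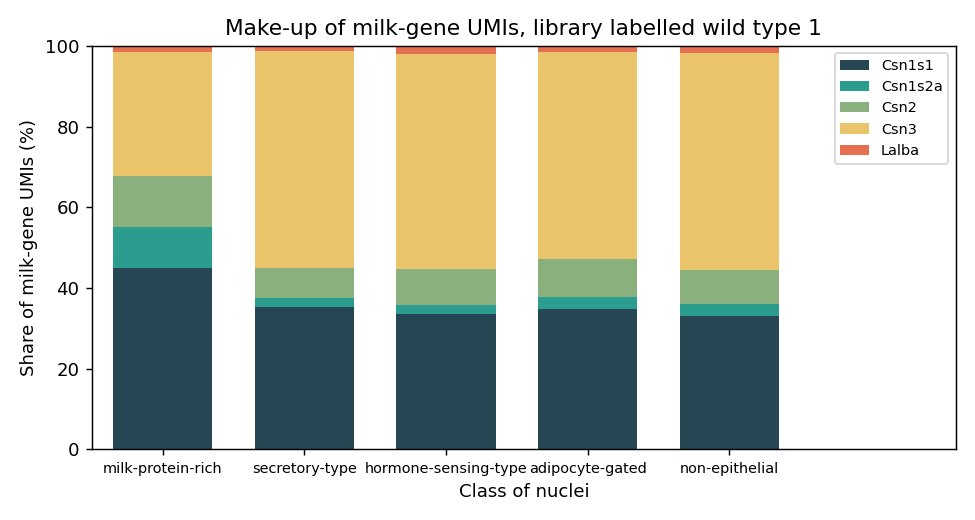
Share of milk-gene UMIs (%) taken by each of the 5 genes in 5 classes of nuclei of the library labelled wild type 1, as stacked bars. Csn1s1 takes 45.0% in the milk-protein-rich nuclei, while Csn3 takes 53.9% in the secretory-type and 54.0% in the non-epithelial nuclei.

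Milk transcripts were also counted in nuclei that failed the epithelial gate. Those that also missed the rule are called non-epithelial here. Of the 13961 in wild type 1, 4047 had at least 1 gate gene. The highest milk share in the class was 4.62%, so it was not shown to be free of epithelial nuclei. In wild type 1, 21.2% of the 13961 non-epithelial nuclei (median 956 UMIs) and 16.2% of the 2619 nuclei gated as adipocytes (median 1906 UMIs) had a milk UMI, against 86.5% of the secretory-type nuclei (median 2412 UMIs). The non-epithelial nuclei had 202 CPM of Csn1s1 and 331 of Csn3, with Csn3 at 54.0% and Csn1s1 at 33.0% of their milk UMIs. In the secretory-type nuclei these shares were 53.9% and 35.2%. Neither class holds a nucleus that met the rule, since these had been set apart. After each nucleus was thinned to 500 UMIs, Csn1s2a had a UMI in 49.4% of the milk-protein-rich, 4.46% of the secretory-type and 0.800% of 2000 non-epithelial nuclei, against 64.6%, 13.9% and 1.43% before thinning.

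The label alveolar epithelial was checked against markers that the rule did not use. Of the 79 nuclei, 43 passed the epithelial gate, 75 had at least 1 of its genes, and 53 had a UMI of Elf5, Kit or Aldh1a3. UMIs of these 3 exceeded the hormone-sensing genes in 48 nuclei, were below them in 10 and tied in 21. Epcam, the epithelial adhesion protein, stood at 589 CPM, close to the 551 of secretory-type nuclei and above the 56.6 of non-epithelial nuclei. Elf5 stood at 708 against 592 in secretory-type and 51.9 in non-epithelial nuclei, while the receptor kinase gene Kit stood at 596 against 930 and 85.5. At 500 UMIs per nucleus, Elf5 was found in 26.6% of the milk-protein-rich nuclei and 22.7% of the secretory-type nuclei, and Kit in 19.0% and 36.6%. Over the whole lists, the 14 gate genes summed to 2660 CPM in milk-protein-rich, 3333 in secretory-type and 376 in non-epithelial nuclei, and Elf5, Kit and Aldh1a3 to 1429, 1722 and 157. The secretory-type nuclei were chosen on these genes, so the comparison is a description. Both sums lay nearer to the secretory-type than to the non-epithelial level. Whey acidic protein (Wap) and the mucin-like Glycam1, both abundant in lactating glands, had 0 UMIs in the milk-protein-rich nuclei, as did the casein gene Csn1s2b, which allows up to 19.9 CPM each. Wap had 12 to 23 UMIs in whole libraries and 0 in the secretory-type nuclei of each. For this reason the nuclei are named here by their leading transcripts.

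Markers of other cells were also counted in these nuclei. Of the 79, 58 had a UMI of an adipocyte marker, and the 12 adipocyte markers summed to 953 CPM in the milk-protein-rich nuclei, 727 in secretory-type and 7076 in non-epithelial nuclei. Of these markers Adipoq and Lep had 0 UMIs and 10 had at least 1, among them Acsl1, which activates fatty acids, at 384 against 211 in secretory-type nuclei. In the same order, the 12 fibroblast markers, with Pdgfra, Col1a1 and Lum among the 6 at 0, summed to 119, 342 and 988 CPM. The 10 endothelial markers, with Flt1 and Kdr among the 5 at 0, summed to 106, 78.7 and 384, and the 8 macrophage markers, with Csf1r among the 5 at 0, to 132, 197 and 552. The 8 B cell markers, with Cd79a and Ms4a1 among the 5 at 0, summed to 79.4, 38.02 and 557. Of 6 plasma cell markers all but Xbp1 were at 0, and Xbp1 is also used by other secretory cells. In the order above, the T or NK cell markers summed to 79.4, 45.9 and 687, and the skeletal muscle markers to 33.1, 24.5 and 107. Sums of adipocyte, endothelial, B cell, T or NK cell and skeletal muscle markers were thus above the secretory-type and below the non-epithelial level. Those of fibroblast, macrophage, basal and Schwann cell or neuron markers were below both. The lowest, median and highest UMIs of the nuclei were 574, 1713 and 4612. This median lay below the 2412 of secretory-type and above the 956 of non-epithelial nuclei. Their median mitochondrial share was 1.84% against 1.67% in secretory-type nuclei. Among the 79, 27 held at least 2 adipocyte or fibroblast markers, and their part in the results was not tested beyond leaving them out.

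The 5 nuclei of the other libraries are given singly. In the library labelled knockout 1, the first had 2468 UMIs and a milk share of 2.35%, with 19 UMIs of Csn1s1, 10 of Csn1s2a, 29 of Csn2 and 0 of Csn3. The second had 1552 UMIs and a share of 3.03%, with 21 of Csn1s1, 16 of Csn1s2a, 3 of Csn2 and 7 of Csn3. The third had 4241 UMIs and a share of 2.22%, with 51 of Csn1s1, 0 of Csn1s2a, 25 of Csn2 and 18 of Csn3. Alpha- or beta-casein led in these 3 nuclei, and all had Kit UMIs. In the library labelled knockout 2, the first had 722 UMIs and 2.22%, with 5 of Csn1s1, 1 of Csn2 and 10 of Csn3, and the second had 1925 UMIs and 2.13%, with 6 of Csn1s1, 4 of Csn2, 27 of Csn3 and 4 of Lalba. Kappa-casein led in both. With 3 and 2 nuclei, no comparison of labels within the milk-protein-rich nuclei could be tested.

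Secretory-type nuclei had milk transcripts in each library, but in wild type 2 of Csn3 alone among the 5 genes. In secretory-type nuclei (763, 142, 413 and 504 in wild type 1, wild type 2, knockout 1 and knockout 2), Csn1s1 stood at 1756, 0, 1093 and 1508 CPM, Csn2 at 364, 0, 348 and 420, and Csn1s2a at 118, 0, 92.0 and 96.7. With a limit of 3 UMIs in the library labelled wild type 2, or 6.96 CPM, Csn1s1 was at least 157-fold higher in each of the other libraries, Csn2 at least 49.97-fold and Csn1s2a at least 13.2-fold. Csn3 was different: 46.5% of the wild type 2 nuclei had a UMI, and its level of 877 CPM (791 to 970) compares with 2686, 1268 and 2007, a ratio of 1.45 to 3.06. In the library without a milk-protein-rich nucleus, the secretory-type nuclei therefore had kappa-casein transcripts and 0 UMIs of the alpha- and beta-caseins of the rule. Its 6314 non-epithelial nuclei had 21 UMIs of Csn1s1, 30 of Csn1s2a and 7 of Csn2. In secretory-type nuclei Lalba stood at 62.9, 0, 6.67 and 21.3 CPM, and between wild type 2 and knockout 1 no difference was detectable at this depth. Spp1 stood at 824, 0, 283 and 56.3. Each library is 1 mouse, and in summed counts fewer active nuclei and less RNA per nucleus cannot be told apart.

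**Figure D3:**
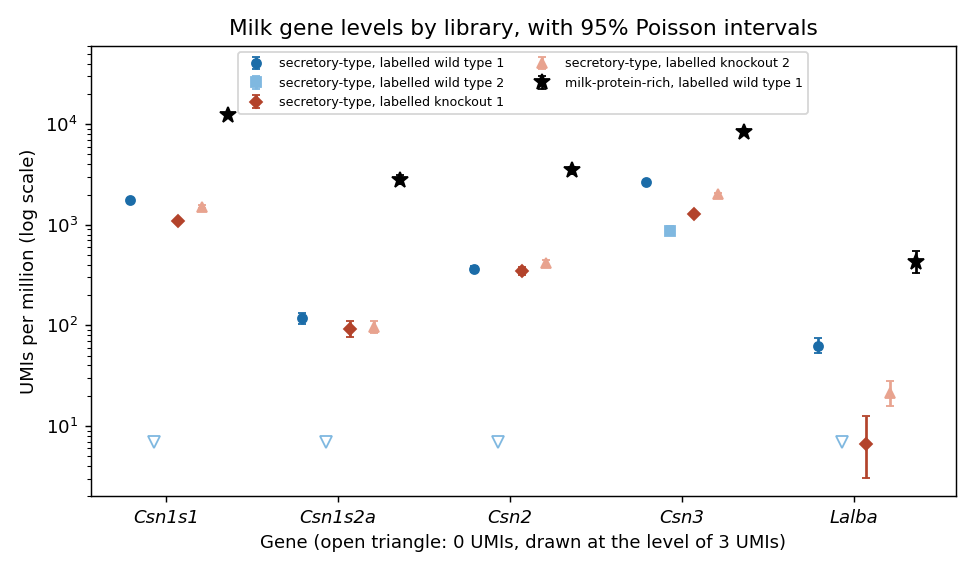
CPM (log scale) of the 5 milk genes in secretory-type nuclei of each library and in the milk-protein-rich nuclei of the library labelled wild type 1, with Poisson 95% intervals. Open triangles stand for 0 UMIs and are drawn at 6.96 CPM, the level of 3 UMIs, where the library labelled wild type 2 sits for every gene but Csn3.

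Genes that the rule did not use were compared between the 79 milk-protein-rich and the 763 secretory-type nuclei of wild type 1. With 1 library this is a description. Of 3751 genes with at least 10 UMIs observed or expected, 452 (12.1%) differed by at least 2-fold, 225 of them (6.00%) higher and 227 (6.05%) lower, and the median log2 difference was -0.02. Genes that pass the limit of 10 UMIs only through the group in which they are high had to differ, so the gene lists are given by their summed CPM over all their genes. The 10 genes of milk fat globule secretion summed to 6419 CPM against 3190 in secretory-type and 1381 in non-epithelial nuclei. Xdh (xanthine oxidoreductase, chr17:73883895-73950196) stood at 3130 CPM (2854 to 3425) against 1153, and had a UMI in 89.9% against 67.4% of nuclei. Btn1a1 (butyrophilin, chr13:23456992-23465901) stood at 1317 (1140 to 1513) against 532, and Plin2 (the coat protein of lipid droplets, chr4:86648386-86670060) at 900 (755 to 1065) against 431. These 3 were past 2-fold, while the globule protein Mfge8 stood at 814 against 869. At 500 UMIs per nucleus, Xdh was found in 64.6% of milk-protein-rich, 33.0% of secretory-type and 16.6% of non-epithelial nuclei, and Btn1a1 in 35.4%, 18.5% and 2.2%.

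The genes of milk lipid synthesis summed to 3070 CPM against 1947 in secretory-type and 4237 in non-epithelial nuclei, with 9 of 28 at 0 UMIs in the milk-protein-rich nuclei. Acaca, which makes malonyl-CoA for fatty acid synthesis, stood at 695 CPM against 311, and malic enzyme Me1 at 476 against 232. The desaturase Scd1 stood at 364 against 232, below 2-fold. Adipocytes also use these enzymes, and Acaca stood at 744 in the non-epithelial nuclei, and the adipocyte markers summed to 953 against 727 CPM in the same nuclei, so the part of adipocyte RNA in these values was not tested. The 15 genes for lactose and glucose supply summed to 966 CPM against 687, with B4galt1 at 556 (443 to 688) against 236, while Ugp2, which makes UDP-glucose, stood at 139 against 163. Of the 3 with enough UMIs to compare, only B4galt1 was above 0, and the median log2 difference was -0.19. The higher sum thus came from B4galt1 and not from the list as a whole.

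Other secreted and secretory-pathway genes gave a mixed picture. Spp1 (osteopontin, a phosphoprotein of milk, chr5:104435118-104441050) stood at 2290 CPM (2055 to 2544) against 824. Lao1, an amino acid oxidase of milk, had 20 UMIs in the milk-protein-rich nuclei and stood at 132 (80.8 to 204) against 11.8, in 12.7% of the nuclei, and in 0 of the 79 at 500 UMIs per nucleus. It entered the comparison only through the milk-protein-rich nuclei and is given as a description. By contrast, the whey protein gene Wfdc18 stood at 159 against 312, and the lactoferrin gene Ltf at 556 against 1021. Fam20a (chr11:109669749-109722279), a pseudokinase that aids the Golgi casein kinase Fam20c, stood at 1906 (1692 to 2139) against 451, and at 500 UMIs it was found in 51.9% against 16.3% of nuclei and in 3.6% of non-epithelial nuclei. The 31 genes of the endoplasmic reticulum and secretory machinery summed to 2468 CPM against 2015. Xbp1, a transcription factor of secretory cells, stood at 371 against 187, a ratio of 2.00.

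The genes of prolactin and STAT5 signalling summed to 8986 CPM against 9267. The prolactin receptor gene Prlr stood at 179 CPM against 374. Stat5a stood at 198 against 119, Stat5b at 271 against 292, Jak2 at 106 against 106, and the STAT5 target Cish at 99.3 against 66.0. The 22 involution genes, which act when milk is no longer removed, summed to 8530 CPM against 7279. Anxa1, an annexin that binds phospholipid, stood at 39.7 against 203 and Clu (clusterin) at 52.9 against 120. Igfbp5 (chr1:72857932-72874884), which binds insulin-like growth factors and gave most of that sum, stood at 6399 against 4381 and had a UMI in 93.7% of the nuclei. Of the 12 involution genes with enough UMIs to compare, Igfbp5 was the only 1 above 0. Among them 3 were at least 2-fold lower, and the median log2 difference was -0.37. The higher sum thus came from Igfbp5 and not from the list as a whole. The 20 cell cycle genes summed to 106 CPM against 155, with 14 at 0.

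A test over libraries was possible at a lower milk share. Nuclei with at least 1% of UMIs from the milk genes and at least 3 of them detected numbered 293 in wild type 1, 0 in wild type 2, 35 in knockout 1 and 34 in knockout 2, 362 in all, of which 84 are the milk-protein-rich nuclei. Summed per library and set against 690, 400 and 485 secretory-type nuclei outside that set with the library as a block (edgeR quasi-likelihood test, n = 3 libraries, Benjamini-Hochberg adjustment), 50 of 9894 genes were called (0.505%), 20 higher (0.202%) and 30 lower (0.303%). All 50 had the same direction in the 3 libraries. For scarce genes this says little, since a small sum with 0 UMIs counts as lower. The collagen gene Col8a1 had 0 UMIs in the milk-rich sums of knockout 1 and knockout 2. It stood at 8.70 and 17.4 normalised CPM in their secretory-type nuclei. The 5 milk genes and the genes of the gates were left out. Levels in this comparison are normalised CPM.

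Of 9 tested genes of milk fat globule secretion, 3 were called higher in the nuclei with the larger milk-gene share and 0 lower. Xdh stood at 2649 against 1074 in wild type 1, 833 against 375 in knockout 1 and 742 against 455 in knockout 2 (log2 difference 1.07, SE 0.17, adjusted p = 0.000805 by edgeR). Btn1a1 stood at 956 against 503, 714 against 374 and 822 against 421 in the same order (log2 0.94, SE 0.17, adjusted p = 0.00252 by edgeR). Plin2 stood at 798 against 403, 488 against 195 and 391 against 239 (log2 0.99, SE 0.19, adjusted p = 0.00454 by edgeR). All 9 estimates were above 0 and the median was 0.46, against -0.03 and 46.7% above 0 for all genes tested. Without the library labelled wild type 1 only Btn1a1 of the 3 kept its call (adjusted p = 0.044 by edgeR), and Xdh and Plin2 had 0.066 and 0.082.

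Spp1, Igfbp5 and Fam20a also rose. Spp1 stood at 2382 against 778, 643 against 275 and 365 against 38.02 (log2 1.92, SE 0.25, adjusted p = 0.000108 by edgeR), the only one called of 4 tested genes for other milk and whey proteins. Igfbp5 stood at 7011 against 4119, 4879 against 2487 and 7458 against 2899 (log2 1.03, SE 0.15, adjusted p = 0.00027 by edgeR). Fam20a stood at 1368 against 406, 369 against 118 and 159 against 81.0 (log2 1.53, SE 0.21, adjusted p = 7.25e-05 by edgeR). The higher level of these 3 in milk-richer nuclei was seen in each of the 3 libraries, which the naming of genes required. Their levels differed between libraries. Fam20a lost its call without wild type 1 (log2 1.32, adjusted p = 0.08 by edgeR).

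The other named genes that rose had log2 differences from 0.84 to 1.75. They were Pkib (an inhibitor of protein kinase A, log2 1.75), Ednra (the endothelin A receptor, 1.62), Cyb5a (cytochrome b5, an electron donor to lipid desaturases, 1.33), Anapc15 (a subunit of the anaphase-promoting complex, 1.20), Lipa (lysosomal acid lipase, 0.99), Pde9a (a cyclic GMP phosphodiesterase, 0.95), Slc28a3 (a nucleoside transporter, 0.91) and Abhd17c (a protein depalmitoylase, 0.84). Pkib was counted at low levels, with 119, 5 and 25 UMIs in the milk-rich sums of wild type 1, knockout 1 and knockout 2. Of these 8, Anapc15, Lipa and Pde9a kept an adjusted p under 0.05 without wild type 1. Lipa lost its call without knockout 2 (adjusted p = 0.12 by edgeR) and Pde9a without knockout 1 (0.13). Abhd17c also lost its call without knockout 2 (0.26). The same held for Abhd17c when only milk-rich nuclei that pass the epithelial gate were used (0.26).

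The 10 named genes that fell are the largest negative differences among the 30 called lower. Dlg2, a scaffold protein of membrane complexes, stood at 25.3 against 658, 83.3 against 577 and 59.7 against 174 normalised CPM (log2 -3.53, SE 0.38, adjusted p = 5.46e-06 by edgeR). Tfap2b, the transcription factor AP-2 beta, stood at 8.43 against 118, 0 against 38.8 and 19.9 against 71.5 (log2 -3.25, SE 0.54, adjusted p = 0.000989 by edgeR). Tfap2b was a gene of the hormone-sensing-type nuclei in wild type 1, at 845 CPM there against 105 in secretory-type nuclei. The other named genes that fell were Alox12e (an epidermal lipoxygenase, -3.21), Samd5 (-3.09), Col8a1 (a collagen chain, -2.86), Thsd7a (-2.55), Xkr4 (-2.45), Slc22a4 (an organic cation transporter, -2.22), Ntn4 (netrin 4, a basement membrane protein, -2.21) and Pak3 (a kinase, -2.04). Their milk-rich sums in the knockout-labelled libraries held 0 to 5 UMIs each. Without wild type 1, Dlg2 and Slc22a4 kept an adjusted p under 0.05, while Samd5 and Col8a1 were not fitted and the other 6 lost the call. Slc22a4 lost its call without knockout 2 (adjusted p = 0.22 by edgeR) and Pak3 without knockout 1 (0.11). Samd5 lost its call when only milk-rich nuclei that pass the epithelial gate were used (0.16). Anxa1 fell by 1.16 (adjusted p = 0.028 by edgeR), the 1 lower call of 18 tested involution genes, beside Igfbp5 as the 1 higher. Its adjusted p was 0.81 without wild type 1 and 0.093 when only nuclei that pass the epithelial gate were used. Dclk1, a kinase gene fixed as a fibroblast marker, fell by 1.88 and was the only call of 6 fibroblast genes.

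**Figure D4:**
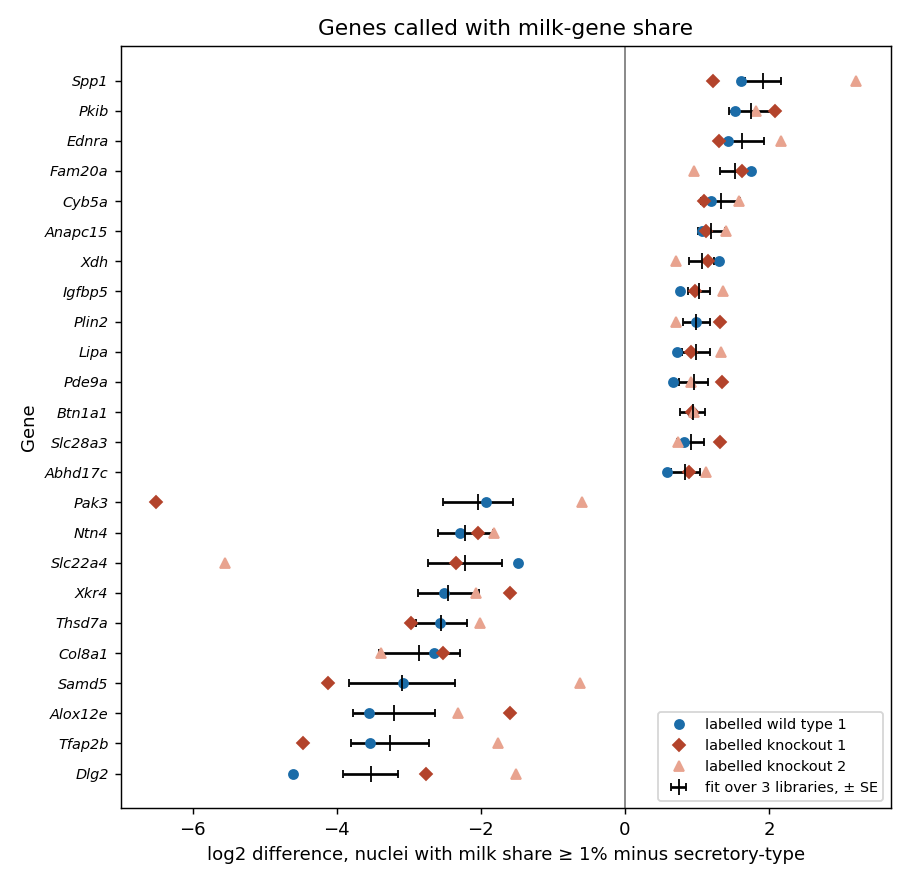
log2 difference between nuclei with a milk-gene share of at least 1% and secretory-type nuclei for the 24 named genes, with the estimate over 3 libraries ± SE (black) and the value of each library (coloured symbols). Every symbol lies on the same side of 0 as its estimate, which was a condition for naming a gene. The values far to the left for the knockout-labelled libraries come from sums of few or 0 UMIs.

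No other list held a call in that test. Milk lipid synthesis had 0 of 22 genes called with 14 above 0 and a median of 0.27, the endoplasmic reticulum and secretory machinery 0 of 30 with 23 above 0 and a median of 0.23, and prolactin and STAT5 signalling 0 of 16 with 9 above 0 and a median of 0.06. At an unadjusted p under 0.05, 566 of 9894 genes passed in the same edgeR test, a share near the 0.05 reached with no differences. Prlr was at -0.69 (SE 0.22, adjusted p = 0.29 by edgeR), Stat5a at 0.35 (SE 0.23) and Elf5, which helped to choose the comparison nuclei, at -0.03. Scd1 was at 0.74 (SE 0.22, adjusted p = 0.19 by edgeR). Of 10 tested adipocyte markers 0 were called, with 6 above 0 and a median of 0.04. Leaving out milk-rich nuclei with at least 2 adipocyte or fibroblast markers gave 57 calls of 9201 genes in place of 50 of 9894. Nuclei with fewer such markers and all comparison nuclei stayed in.

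The 79 milk-protein-rich nuclei are among those tested, so their values for these genes are no further support. Dlg2 stood at 46.3 CPM (18.6 to 95.4) in them against 588. In secretory-type nuclei of the library labelled wild type 2, which took no part in the test, 8 of the 14 named genes that rose were the lowest of the 4 libraries, against 44.5% of all genes tested, a share near that background. Among these, Btn1a1 stood at 111 CPM there against 532, 378 and 462 in wild type 1, knockout 1 and knockout 2, and Xdh at 285 against 1153, 368 and 496. Of the 10 named genes that fell, 3 were highest in that library, against 24.4% of all genes tested, a share near that background, and 2 were lowest.

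Within the casein region, few UMIs came from protein-coding genes outside the rule. The interval holds 7 protein-coding genes, of which 3 are not in the rule. Csn1s2b (chr5:87808082-87824426) and Odam (chr5:87885029-87894174), an enamel-associated gene, had 0 UMIs in the 79 nuclei, and Prr27 (chr5:87825686-87846387) had 2. The active genes Csn1s2a (chr5:87774567-87788797) and Csn3 (chr5:87925579-87932665) lie on either side of these 3, and Csn1s1 (chr5:87666208-87682578) and Csn2 (chr5:87692624-87699630) lie at the other end. An antisense RNA gene that spans Csn3, 1700066N21Rik (chr5:87908579-87979351), had 10 UMIs, and as the use of strand in counting is not stated, its reads and those of Csn3 cannot be told apart. Across the 79 nuclei the milk share had a Spearman correlation of -0.07 with total UMIs and 0.01 with the number of gate genes detected, given as a description over nuclei of 1 library.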

How the data were processed

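Per the labels' protocols, a Singleron GEXSCOPE nucleus kit was used, with 150 bp paired-end Illumina sequencing. The matrices as deposited are unscaled UMI counts, and no barcode in them has under 500. Per the submitters' processing notes, GRCm38 (mm10) and Seurat 4.3.0 were used; no aligner is named there or in the labels. The set of milk-protein-rich nuclei, the gene lists and the tests were chosen with earlier results of these data known.

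Barcodes with under 300 genes or over 10% mitochondrial UMIs were removed. No doublets were removed and no clustering was run. Levels (CPM) are UMIs summed over a class per 1000000, with exact Poisson intervals, and a count of 0 was limited by 3 counts. In wild type 1, genes with at least 10 UMIs observed or expected were compared with a prior count of 0.5 and called at 2-fold.

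The planned tests needed 10 milk-protein-rich nuclei in at least 2 libraries, and 1 library had them, so values stand in their place. The test at a milk share of 1% was therefore added after these numbers were seen. It used edgeR 4.0.16 (filterByExpr, TMM, robust glmQLFit, library as block, adjusted p under 0.05), and was tested on simulated data. Named genes are the 15 largest higher and 10 largest lower calls with 1 direction in every library, without predicted genes, plus up to 4 genes of each list. One called gene that the rule named is not reported here, so 14 higher genes are named. P-values set the difference between classes of nuclei against its variation over 3 libraries, each from 1 mouse. With 2 residual degrees of freedom per gene, that variation was estimated in part from all genes together. A p-value thus does not measure the spread of its gene alone. Spp1 differed by log2 1.22, 3.20 and 1.61 in knockout 1, knockout 2 and wild type 1. Its adjusted p by edgeR was 0.000108, and 2.4e-20 with knockout 1 left out. The library block takes out differences in level between libraries. Promoters are from RefSeq. Alternatives included DESeq2 1.42.0, no filter, deeper nuclei, stricter gates, other comparison nuclei and leaving out each library.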

Additional observations from a re-analysis of the deposited data

How the results depend on the processing

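The share difference between labels kept its direction under every alternative run except without the library labelled wild type 1, and leaving out each library in turn gave -0.490 to 0.0188 percentage points. With the replicate block, pairing by replicate number, it was -0.236, as without it. No paired analysis was possible within the milk-protein-rich nuclei because 1 library held 10 or more of them, and for the same reason the planned size factor, DESeq2, no-block and leave-one-out alternatives of those comparisons were not run. At a 5% milk share 0 nuclei remained. In wild type 1, the 452 of 3751 genes past 2-fold became 848 of 8688 at a 1% milk share and 1138 of 4024 against hormone-sensing-type nuclei. They became 5519 of 13682 with no filter and, with at least 30 UMIs (chosen after seeing the data), 71 of 1152. With at least 1000 UMIs per nucleus it was 415 of 3520. The alternatives of the test at 1% were all chosen after seeing the data. Its 50 calls of 9894 genes became 18 of 8858 without the library labelled wild type 1, the lowest with a library left out. The highest was 83 of 9951, without the library labelled knockout 2. Without the library block edgeR gave 0 of 9894, with 490 at an unadjusted p under 0.05. Against all other epithelial-gated nuclei the test called 342 of 11714, against hormone-sensing-type nuclei 973 of 9141, and with DESeq2 32 of 5475. With nuclei that pass the epithelial gate themselves it made 54 calls of 9382. Anapc15, Btn1a1, Dlg2, Igfbp5 and Spp1 kept their calls with each library left out. These fits rest on fewer libraries and can give smaller adjusted p, so a kept call says little about variation between mice. For Dlg2 the adjusted p by edgeR was 5.46e-06 with all libraries and 7.6e-33 without knockout 2. On simulated data of 9442 genes for this test, 26 of 92 genes changed by 1 on the log2 scale and 68 of 92 changed by 2 were called, so smaller differences were often missed at this depth.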
